A study of Mus musculus with 8 samples.

Results

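Wide-anchor loops that the ZT22 library listed and the ZT10 library did not were examined in mouse liver carrying HA-tagged REV-ERBα. They were chosen by 3 conditions on the loop lists. Both anchors (the paired intervals of a loop) had to be at least 700 bp wide, the span between anchor midpoints had to be under 2 Mb, and no ZT10 loop could overlap both anchors by 1 bp or more. Of 40597 nuclear loops listed at ZT22, 4355 met the rule, which is 10.7% of the loops and 10.5% of the listed paired-end tags (13914 of 132709). The rule also left out chr11 3.1 to 3.3 Mb, where ZT22 listed 67 loops of any anchor width. With that region kept, 4386 loops would have met the 3 conditions. These 4355 loops are called ZT22-only wide loops here, which refers to the lists and not to absence from the nuclei at ZT10.

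In-situ ChIA-PET cuts and religates crosslinked chromatin inside nuclei and then pulls down the fragments bound by a protein, so that each paired-end tag (PET) joins a pair of places that lay close together. Liver nuclei were crosslinked with formaldehyde and EGS, cut with AluI and religated with T4 ligase, and anti-HA beads pulled down the tagged protein before Tn5 tagmentation and PCR. Both knock-in libraries came from REV-ERBa3HA/3HA mice without virus, which carry the tag on their own protein, with 1 library at zeitgeber time (ZT) 22, late in the dark phase, and 1 at ZT10, late in the light phase. Beside them stood 4 libraries at ZT10 from mice with floxed alleles of both receptors (REV-ERBa f/f and REV-ERBb f/f). These mice had received AAV8-TBG-Cre with either AAV8-TBG-3HA-REV-ERBa-WT or AAV8-TBG-3HA-REV-ERBa-delhIDR, with 2 libraries for each construct. The TBG promoter (thyroxine-binding globulin) is active in hepatocytes, so that in these mice the tagged protein was directed to hepatocytes and other liver cells kept their own receptors. With 1 knock-in library per time, no difference between times has a replicate check, and all intervals below are 95% intervals for counting error only. PCR copies and shared anchors mean that PETs and loops are not fully independent counts.

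REV-ERBα (gene Nr1d1) is a haem-binding nuclear receptor that represses transcription by recruiting the NCoR corepressor and the deacetylase HDAC3. In liver it links the circadian clock to lipid, bile acid and glucose metabolism, and its protein is abundant late in the light phase and scarce late in the dark phase. A loop joins distant places of a chromosome, such as an enhancer and a gene start, and a listed loop in such data is a cluster of PETs whose ends fall together.

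Few anchors held a whole gene start, and the promoters among them are shown first because they give the sequence under the anchors that can be read here. Of 32851 RefSeq promoter windows (GRCm38.p6, 250 bases before to 50 after a gene start), 126 windows of 119 genes lay wholly inside an anchor of a ZT22-only wide loop. The window of Thrb, the gene of thyroid hormone receptor β, was taken because both anchors of its loop were used at ZT10. Those of Mob3b (a kinase activator family member), Atmin (a transcription factor of the DNA damage response) and Uba3 (a subunit of the NEDD8-activating enzyme) belong to loops of 5 PETs and were chosen after their values were seen. Capitals mark AGGTCA, the core sequence bound by REV-ERB receptors, and AGCT, the site that AluI cuts, on either strand. All 4 read 5′ to 3′ on the gene's strand.
Thrb, chr14:17660710-17661009, plus strand: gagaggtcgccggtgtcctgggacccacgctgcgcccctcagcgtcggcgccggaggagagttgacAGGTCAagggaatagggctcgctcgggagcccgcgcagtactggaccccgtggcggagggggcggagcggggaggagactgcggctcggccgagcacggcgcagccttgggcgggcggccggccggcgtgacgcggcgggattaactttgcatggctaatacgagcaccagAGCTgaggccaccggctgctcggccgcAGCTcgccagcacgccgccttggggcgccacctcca
Mob3b, chr4:35157435-35157734, minus strand: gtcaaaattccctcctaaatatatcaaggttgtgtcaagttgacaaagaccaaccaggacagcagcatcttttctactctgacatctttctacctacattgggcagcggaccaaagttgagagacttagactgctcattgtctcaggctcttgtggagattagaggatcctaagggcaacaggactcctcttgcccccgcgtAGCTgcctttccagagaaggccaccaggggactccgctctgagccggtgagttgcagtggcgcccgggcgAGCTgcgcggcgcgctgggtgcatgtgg
Atmin, chr8:116943143-116943442, plus strand: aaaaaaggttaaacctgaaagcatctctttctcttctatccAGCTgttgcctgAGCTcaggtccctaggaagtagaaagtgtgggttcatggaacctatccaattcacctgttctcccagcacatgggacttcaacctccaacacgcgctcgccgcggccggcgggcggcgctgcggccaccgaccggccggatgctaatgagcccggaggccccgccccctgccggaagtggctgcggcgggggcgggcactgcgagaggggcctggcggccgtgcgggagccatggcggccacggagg
Uba3, chr6:97205598-97205897, minus strand: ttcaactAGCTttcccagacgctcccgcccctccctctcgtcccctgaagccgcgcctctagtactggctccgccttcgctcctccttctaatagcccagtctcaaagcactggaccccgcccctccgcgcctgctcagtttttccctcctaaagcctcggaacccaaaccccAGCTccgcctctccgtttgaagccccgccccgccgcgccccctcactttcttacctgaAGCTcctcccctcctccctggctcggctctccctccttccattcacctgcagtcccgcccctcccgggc

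Thrb was the only one of these 4 windows with AGGTCA, which it held 1 time, and its loop joined the gene start to the gene body 239.7 kb away with 3 PETs. The AluI site occurred 2 times in the windows of Thrb, Mob3b and Atmin and 3 times in that of Uba3. Over all 126 windows, AGGTCA on either strand was found in 21 (16.7%, 10.6 to 24.3%), against 16.3% of all promoter windows and 15.6% of the 3807 windows inside wide ZT10 anchors. The full ROR response element, searched by name as AGGTCA or GGGTCA behind its A/T-rich flank and so overlapping AGGTCA matches, was found in 1 of the 126 windows, against 0.383% of all. The E-box CACGTG, the site of CLOCK and BMAL1, was in 7 windows (5.56%, 2.26 to 11.1%), against 7.15% of all. AGCT was in 119 of the 126 windows (94.4%, 88.9 to 97.7%), against 77.6% of all promoter windows, 86.0% of those inside wide ZT10 anchors and 82.8% of the 215 inside anchors of narrower ZT22 loops. The share with the cutter's site was thus above that of all promoters, while the interval for AGGTCA included the share of all promoters. A match is a description of letters in a window and not evidence of binding.

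The choice itself accounts for the number of loops and is given as a description. Of 4716 ZT22 loops with both anchors wide, 27 spanned 2 Mb or more and 4689 less. A ZT10 loop overlapped both anchors of 334 of these 4689 loops (7.12%), and the other 4355, or 92.9%, are the loops described here, selected on the ZT22 and ZT10 lists. The same share without a ZT10 match was 99.2% among the 20032 ZT22 loops under 2 Mb with a narrower anchor. In the reverse direction, 98.8% of the 41273 wide ZT10 loops under 2 Mb had no ZT22 loop at both anchors. Being listed at one time only was therefore the usual state of a loop in either list, and nothing about these loops is read from it.

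Wide anchors were in the minority at ZT22 and in the majority at ZT10. Loops with both anchors wide and a span under 2 Mb made up 11.6% of ZT22 loops and 71.4% of ZT10 loops. The AAV libraries lay between 0.624% (delhIDR, replicate 2) and 5.71% (WT, replicate 1). The sum of listed PETs was 132709 for ZT22, 320427 for ZT10 and between 104161 and 204018 for the AAV libraries. Each library listed no loop under 3 PETs. Listed PETs are not the sequencing depth, which is unknown here.

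Spans of the ZT22-only wide loops were short. The median was 12.8 kb (12.5 to 13.1 kb), the shortest was 7.645 kb, the lower and upper quartiles were 9.739 and 25.6 kb, and the longest reached 1884 kb. In classes, 1237 (28.4%) were under 10 kb, 1784 (41.0%) from 10 to 20 kb, 679 (15.6%) from 20 to 50 kb, 305 (7.003%) from 50 to 100 kb, 310 (7.12%) from 100 to 500 kb and 40 (0.918%) from 500 kb to 2 Mb. The wide ZT22 loops that ZT10 also listed had a median of 16.8 kb (15.6 to 18.9 kb), and the wide ZT10 loops one of 31.1 kb. ZT22 loops with a narrower anchor under the same 2 Mb limit had a median of 113.9 kb. The span was no part of the choice except for the upper limit, and 99.4% of wide ZT22 loops met that limit, against 55.9% of narrower ones.

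**Figure D1:**
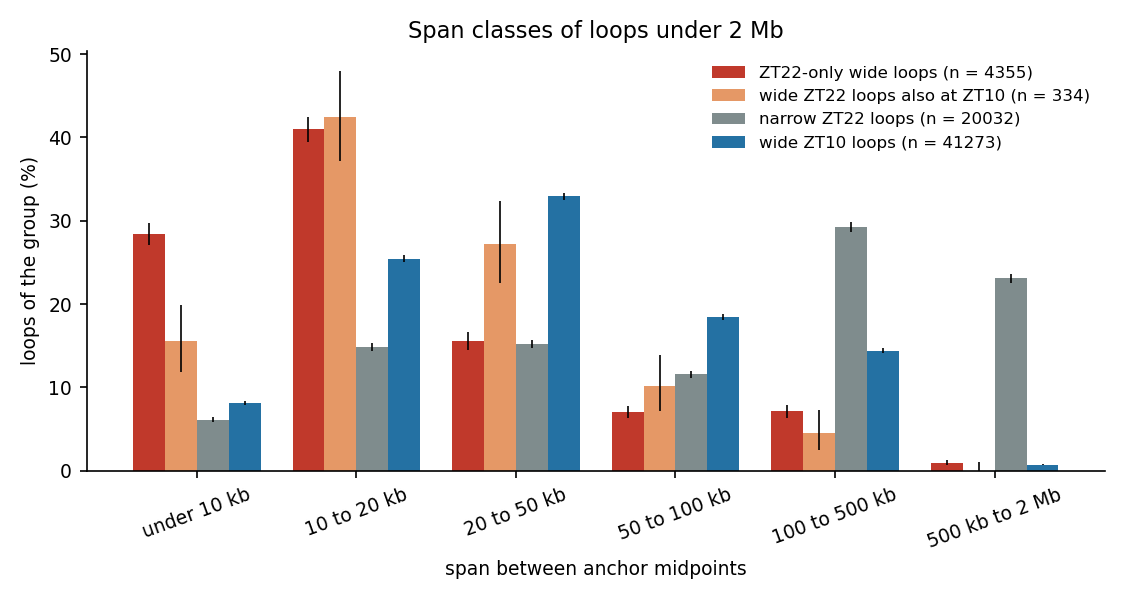
Share of loops (y axis, percent) in 6 classes of span (x axis) for ZT22-only wide loops, wide ZT22 loops also listed at ZT10, narrower ZT22 loops and wide ZT10 loops, all under 2 Mb; bars carry exact 95% binomial intervals. ZT22-only wide loops lie mostly under 20 kb, where the 2 shortest classes hold 28.4% and 41.0%, whereas the wide ZT10 loops are most frequent from 20 to 50 kb.

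The change of span with anchor width was a step and not a slope. ZT22 loops whose narrower anchor measured 500 to 550 bp, 550 to 600 bp and 600 to 650 bp had median spans of 1179, 1245 and 744.2 kb. From 650 to 700 bp the median was 15.2 kb, and it was 14.4 kb at 700 to 800 bp, 13.5 kb at 800 to 1000 bp, 12.2 kb at 1000 to 1500 bp and 10.8 kb in the 48 loops above that. The step thus lay at about 650 bp, below the 700 bp limit of the rule, and 729 loops of 650 to 700 bp resembled the chosen loops in span. The share of loops also listed at ZT10 was 0.344% at 500 to 550 bp, 4.04% at 650 to 700 bp, 5.90% at 800 to 1000 bp and 9.32% at 1000 to 1500 bp. Wider anchors overlap more by their size, and the part of that in this order was not tested.

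**Figure D2:**
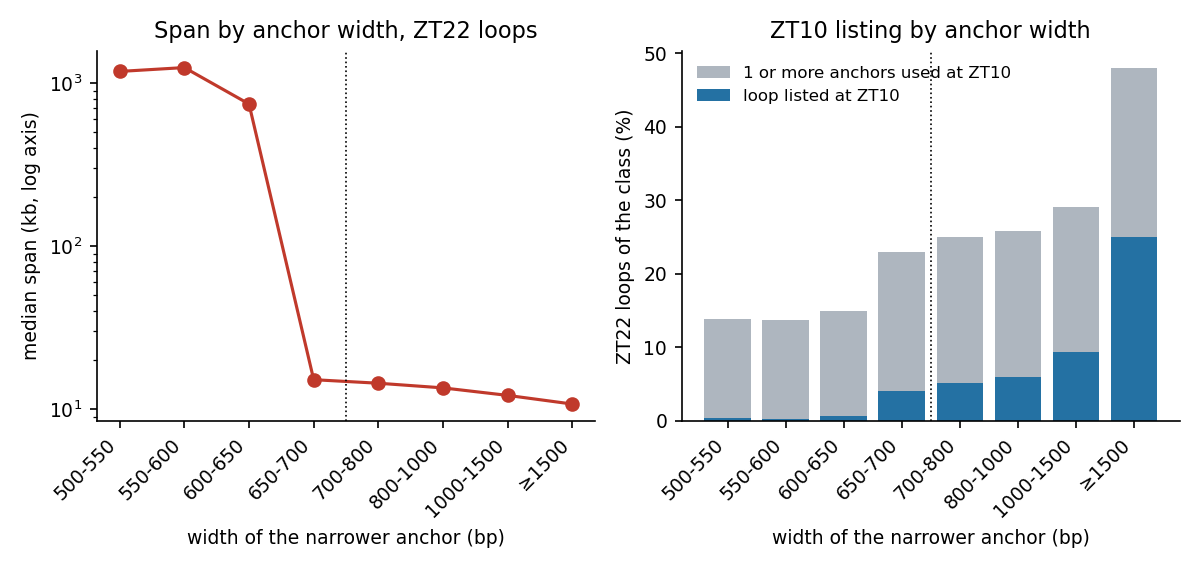
ZT22 loops by the width of their narrower anchor (x axis, bp), with the median span on a log axis in kb (left) and, as overlaid bars, the percent of loops with 1 or more anchors used at ZT10 and the percent listed at ZT10 (right). The dotted line marks the 700 bp limit; the median span steps from 744.2 to 15.2 kb one class below it.

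Loops just inside and outside the limits looked alike. The 3 loops nearest inside the width limit had a narrower anchor of 700 bp, 3 PETs each and spans of 8.820, 19.2 and 10.3 kb. The 3 nearest outside had 699 bp, 3 or 4 PETs and spans of 10.9, 255.3 and 9.463 kb. Loops without a ZT10 match numbered 240 at 700 to 719 bp and 226 at 680 to 699 bp. At the span limit, the longest loops inside spanned 1606, 1806 and 1884 kb with 3 PETs each, and the first outside spanned 2230, 2372 and 2560 kb with 3, 4 and 4 PETs.

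Most ZT22-only wide loops held the lowest count listed, as did ZT22 loops in general. The counts were 3 PETs in 3655 loops (83.9%), 4 in 577, 5 in 102, 6 in 16 and 7 in 5, with a mean of 3.195. Of the narrower ZT22 loops under 2 Mb, 81.3% held 3 PETs. A count of 5 or more occurred in 2.82% of the ZT22-only wide loops, in 4.46% of the narrower ZT22 loops, in 8.98% of the 334 wide ZT22 loops also listed at ZT10, and in 38.6% of the wide ZT10 loops. A loop of 3 PETs has an exact Poisson interval of 0.619 to 8.77 PETs, so a loop missing from the other list could have had up to 2 PETs there and differ from 3 by counting error alone. The width of single anchors had a median of 1001 bp and a maximum of 2287 bp.

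The 10 loops with most PETs held 6 or 7 PETs, and 9 of the 10 had no ZT10 loop at either anchor. That also held for 78.6% of all ZT22-only wide loops and for 73.2% of the 123 with 5 or more PETs. Rimklb, which encodes an amino acid ligase, had an anchor 2.155 kb from its start (chr6:122483874-122484907) joined by 7 PETs to chr6:122492633-122494073, 8.963 kb away. In Serp2 (chr14), a small protein of the endoplasmic reticulum, 7 PETs joined an anchor over the 3′ end to one 3.529 kb from the start, a span of 20.6 kb. Angpt1, the ligand of the endothelial receptor TIE2, had a 7-PET loop of 9.746 kb (chr15:42669916-42671276 to chr15:42679558-42681127). Another loop of 7 PETs spanned 120.5 kb from the olfactory receptor gene Olfr90 (chr17) to a place between genes. A count of 7 PETs has a Poisson interval of 2.81 to 14.4 PETs.

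Among the 5 loops of 6 PETs named by rank, 3 belonged to genes, namely one inside Nrp2 (a semaphorin and VEGF co-receptor, 41.5 kb), one 1.791 kb from the 3′ end of Mtx2 (a mitochondrial import protein, 10.6 kb) and one inside Nt5dc1 (9.357 kb). Another lay between genes on chr17 (9.519 kb). The last lay between genes on chr8 (chr8:41155418-41156815 to chr8:41179600-41181208, 24.3 kb) and was the 1 loop of the 10 with anchors used at ZT10. Its first anchor had 10 ZT10 loops of 113 PETs and its second 2 of 10 PETs. All loops of 6 or 7 PETs numbered 21. Of these, 16 were under 20 kb, 18 had no anchor used at ZT10, and 0 were listed in an AAV library. Of all 4355 loops, 3021 were under 20 kb, 78.6% had no anchor used at ZT10 and 0.597% were listed in an AAV library.

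Single anchors of ZT22-only wide loops were used at ZT10 in a minority of cases. An anchor counts as used when any ZT10 loop has an anchor overlapping it by 1 bp. No anchor was used in 3421 loops (78.6%), exactly 1 in 711 (16.3%) and both, by different ZT10 loops, in 223 (5.12%). Hence 934 loops (21.4%, 20.2 to 22.7%) had at least 1 anchor that ZT10 listed with other partners. Among ZT22 loops with a narrower anchor under 2 Mb, including the few matched at ZT10, the shares were 16.2% for at least 1 anchor and 2.69% for both. The choice removed every loop whose anchors were joined to each other at ZT10, so the share with both used is lowered by the rule. Anchor midpoints, which do not depend on width, fell inside a ZT10 anchor for 10.0% of the ZT22-only wide anchors (9.40 to 10.7%) and 7.57% of the narrower ones (7.31 to 7.83%), while ZT10 anchors covered 2.80% of the chromosomes.

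The share with a used anchor followed span. It was 15.3% under 10 kb (13.3 to 17.4%), 17.7% from 10 to 20 kb (16.0 to 19.6%), 32.6% from 20 to 50 kb (29.0 to 36.2%), 35.7% from 50 to 100 kb (30.4 to 41.4%) and 29.7% from 100 to 500 kb (24.6 to 35.1%). Of the 40 longest loops, 7 had a used anchor (17.5%, 7.34 to 32.8%). Narrower ZT22 loops stayed between 11.6% and 20.1% over the same classes. Below 20 kb the intervals of the wide and narrower loops overlapped, and from 20 to 500 kb they did not. Single anchors had a median width of 1001 bp in the wide and 616 bp in the narrower loops. Wider anchors overlap more by their size, and the part of that in this comparison was not tested. With PETs the share changed less, from 21.0% at 3 PETs to 26.8% at 5 or more (19.2 to 35.6%).

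**Figure D3:**
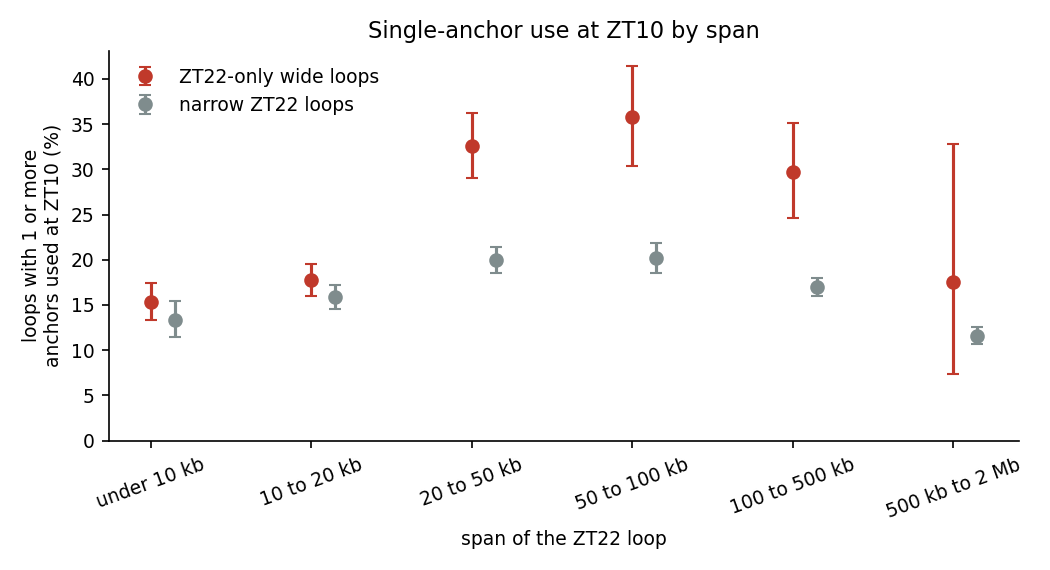
Percent of ZT22 loops with 1 or more anchors used by any ZT10 loop (y axis) in 6 classes of span (x axis), for ZT22-only wide loops and for narrower ZT22 loops; points are shares and bars exact 95% binomial intervals. The wide loops lie above the narrower ones from 20 to 500 kb and overlap them under 20 kb. The shares are not adjusted for anchor width.

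Used anchors were mostly ends of a few weak ZT10 loops. The 1157 used anchors had a median of 2 ZT10 loops and 7 ZT10 PETs. A single ZT10 loop touched 542 of them (46.8%), 5 or more touched 178 (15.4%) and 10 or more touched 49. The largest numbers were 27 loops and 365 PETs at 1 anchor. ZT10 loops at used anchors had a median span of 37.1 kb.

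Where both anchors were used, some of the ZT10 loops met at another place. In 105 of the 223 ZT22-only wide loops with both anchors used (47.1%, 40.4 to 53.9%), both were joined at ZT10 to a common further anchor. That share was not taken for other ZT22 loops, so it does not set these loops apart. The distance to the nearest ZT10 loop, taken as the larger of the gaps at the 2 ends, had a median of 80.6 kb over all 4355 loops (quartiles 23.6 and 228.9 kb). It was within 1 kb for 104 (2.39%), within 5 kb for 391 (8.98%) and within 10 kb for 628 (14.4%). For loops under 20 kb, 7.32% had a ZT10 loop within 5 kb, against 5.81% of the narrower unmatched ZT22 loops of that span.

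The 10 loops with both anchors used and most ZT10 PETs at the less used anchor lay mostly within genes, and are given in no order. One with 4 PETs at ZT22 joined a place between genes (chr8:10853072-10854072) to the body of Irs2, a mediator of insulin signalling (chr8:11000911-11002013) over 147.9 kb. Its anchors carried 169 PETs in 16 loops and 33 PETs in 5 loops at ZT10. Inside Agtr1a, the angiotensin II receptor gene (chr13), 4 PETs joined anchors 9.639 kb apart that held 133 and 112 PETs at ZT10. Inside Col27a1, a fibrillar collagen gene (chr4), anchors 9.741 kb apart held 175 and 96 PETs at ZT10 and 3 PETs joined them at ZT22. The pair inside Dapk1, a death-associated kinase gene (chr13, 35.9 kb), held 81 and 145 PETs, and that inside Reep3 (chr10, 21.4 kb) 44 and 64 PETs. Each of these anchors was thus listed with at least 33 PETs at ZT10, all with other partners.

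The remaining 5 had 30 or more ZT10 PETs at each anchor. The loop at Mroh2a and Hjurp (chr1, 17.0 kb) had anchors with 55 and 140 ZT10 PETs, that of Slc22a23, an organic ion transporter family member (chr13, 258.3 kb), 99 and 30, and the Thrb loop of the printed promoter 41 and 48. A loop between genes on chr17 (113.1 kb) had 37 and 103. The last, on chr18 (123.3 kb), joined the body of Eif1a to the ends of Cdo1, the cysteine dioxygenase of taurine synthesis, and Atg12, an autophagy protein, with 318 and 67 ZT10 PETs. In Reep3, Dapk1 and Thrb the nearest ZT10 loop was within 1 kb (0.132, 0.337 and 0.945 kb), so that it barely missed the overlap, and 56 of the 223 loops had a ZT10 loop that near.

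Fewer of the ZT22-only wide loops lay at gene ends than of the wide ZT10 loops. An anchor within 5 kb of an annotated end of a protein-coding gene was found in 1102 ZT22-only wide loops (25.3%, 24.0 to 26.6%), against 48.0% of wide ZT10 loops and 52.4% of the wide ZT22 loops that ZT10 also listed. Both anchors lay in the body of 1 gene, counting its ends, in 1634 (37.5%) and both between genes in 1645 (37.8%), against 34.5% and 19.9% at ZT10. The narrower ZT22 loops had 27.1% at a gene end, 17.7% with both anchors in the body of 1 gene and 33.4% with both between genes. Over all spans, ZT22-only wide loops were thus nearer to the narrower ZT22 loops at gene ends and between genes, and nearer to wide ZT10 loops in gene bodies. The narrower loops are much longer, however. Among ZT22 loops under 20 kb, both anchors lay in the body of 1 gene in 42.2% of the ZT22-only wide and 37.4% of the narrower loops. Both lay between genes in 43.0% and 43.65%, and an anchor lay at a gene end in 21.3% and 24.4%. By single midpoints, 14.2% of the ZT22-only wide anchors lay within 5 kb of a gene end, where 12.6% of the chromosomes lie. That share was 27.9% for wide ZT10 anchors. Gene bodies away from the ends held 41.4% of midpoints (33.2% of the chromosomes).

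Gene starts were touched slightly more often than 3′ ends. With the strand of the 17492 genes that the RefSeq promoter table gives without conflict, 612 loops (14.1%, 13.0 to 15.1%) had an anchor within 5 kb of a gene start and 539 (12.4%, 11.4 to 13.4%) within 5 kb of a 3′ end. Among wide ZT10 loops the shares were 32.7% and 18.1%. Narrower ZT22 loops under 2 Mb had 14.7% and 12.8%, so the small excess of starts was not particular to the ZT22-only wide loops. A start and no 3′ end was touched by 387 ZT22-only wide loops (8.89%, 8.06 to 9.77%), and a 3′ end and no start by 314 (7.21%, 6.46 to 8.02%). Loops with no anchor used at ZT10 had 10.4% at starts and 11.2% at 3′ ends, and loops with a used anchor 27.3% and 16.6%. Starts thus exceeded 3′ ends in wide ZT10 loops and in ZT22-only loops that share an anchor with ZT10, while the intervals of both overlapped in loops that share none (9.43 to 11.5% and 10.2 to 12.3%). Loops with a used anchor hold a ZT10 anchor position by definition, so their likeness to ZT10 loops is in part built in.

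Counted over both kinds of end, use at ZT10 also went with position. An anchor at a gene end was found in 20.8% of the loops with no anchor used at ZT10 (19.5 to 22.2%), 40.6% of those with exactly 1 used (37.0 to 44.4%) and 44.8% of those with both (38.2 to 51.6%). Both anchors lay between genes in 42.4%, 21.9% and 17.0%. The loops that share an anchor with ZT10 thus had shares nearer to those of wide ZT10 loops than the 3421 that share none. These groups are defined by overlap with ZT10 anchors, so this likeness in position is in part built into the grouping and is only a description.

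**Figure D4:**
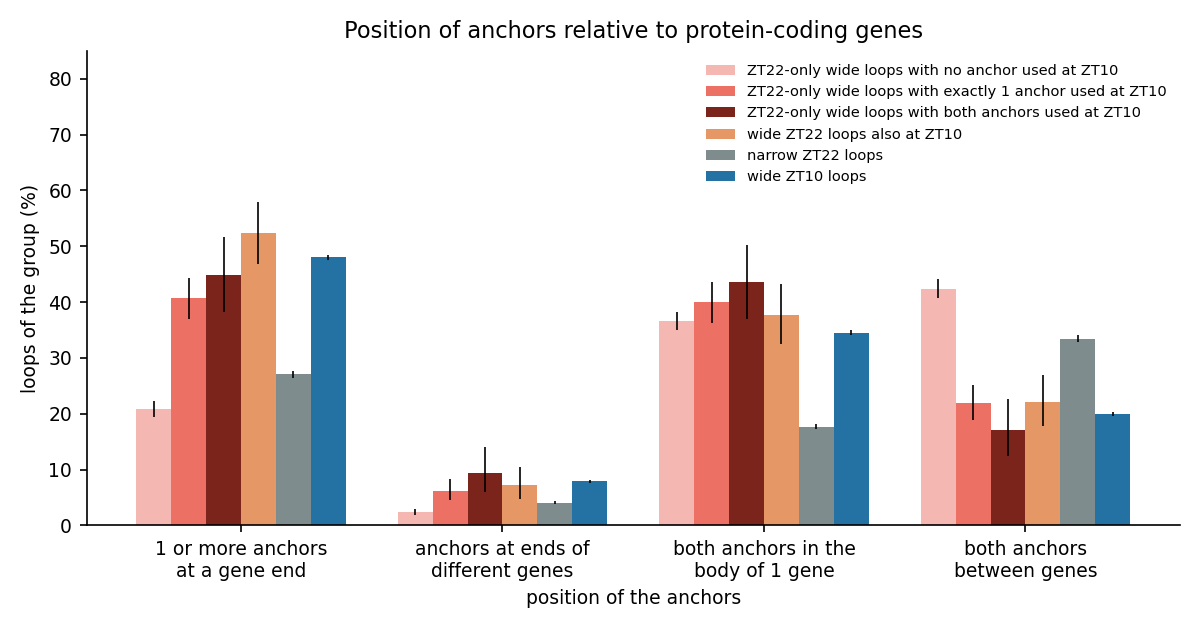
Percent of loops (y axis) by anchor position relative to protein-coding genes (x axis) for ZT22-only wide loops with no, 1 or both anchors used at ZT10, for wide ZT22 loops also listed at ZT10, for narrower ZT22 loops and for wide ZT10 loops; bars carry exact 95% binomial intervals. Gene ends hold 20.8% of the loops with no used anchor and 40.6% and 44.8% of those with 1 or both used, beside 48.0% of wide ZT10 loops.

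The loops were spread thinly over genes. Of 21887 protein-coding genes, 1453 (6.64%) had a ZT22-only wide loop at an end, 1371 of them exactly 1, and 8 had 3 or more. A ZT10 loop at an end was listed for 920 of the 1453 (63.3%, 60.8 to 65.8%), against 43.0% of all genes. The other 533 genes listed no ZT10 loop at their ends. Overlapping anchors of the 4355 loops merged into 8636 places, of which 8563 joined 1 loop, 72 joined 2 and 1 joined 3. The place with 3 was in the body of Ntrk2, the neurotrophin receptor gene (chr13:58968767-58970741), and had no ZT10 loop.

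The other 4 leading places joined 2 loops each. They lay in the bodies of Prox2 (9 PETs) and Pde7b, a cyclic AMP phosphodiesterase gene (8 PETs), and at the ends of Rmnd5a, a subunit of the CTLH ubiquitin ligase (9 PETs), and Itga1, an integrin gene (8 PETs). Only that of Prox2 had a ZT10 loop, of 3 PETs. In all, 145 loops shared an anchor with another.

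The 10 genes with most PETs of these loops at their ends held between 0 and 582 PETs at ZT10. Mroh2a had 13 PETs in 4 ZT22-only wide loops, 25 PETs in all ZT22 loops and 457 at ZT10. Its neighbour Hjurp, a chaperone of centromeric histone CENP-A, had 10, 29 and 582 PETs, in part from the same loops. Khk, which encodes ketohexokinase, the first enzyme of fructose breakdown in liver, had 9, 12 and 51. Bcl9l, a Wnt pathway coactivator, had 10, 20 and 46, and Rmnd5a 9, 9 and 57. At these 5 genes ZT10 listed 46 to 582 PETs. For 1 of the Khk loops, a ZT10 loop lay 0.424 kb short of a match.

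At the other 5 genes ZT10 listed 0 to 20 PETs. Net1, a RhoA exchange factor, had 10 PETs in 3 ZT22-only wide loops, 14 in all at ZT22 and 0 at ZT10. Agps, an enzyme of ether lipid synthesis, had 9, 9 and 0. Itpkb, an inositol trisphosphate kinase, had 10, 10 and 13, Kmt2c, a histone H3K4 methyltransferase, 9, 12 and 20, and Cbx2, a Polycomb subunit, 8, 8 and 6. The Poisson interval of 10 PETs is 4.79 to 18.4. Since ZT10 listed 320427 PETs in all and ZT22 132709, equal counts are not equal shares. An AAV library at ZT10 listed Agps with up to 16 PETs (delhIDR, replicate 1) and Net1 with up to 7 (delhIDR, replicate 1).

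Of 20 core clock genes, 2 had a ZT22-only wide loop at an end, beside 6.64% of all genes. Npas2, the partner of BMAL1 related to CLOCK and a repressed target of REV-ERB, had a loop of 3 PETs and 13.2 kb from 4.799 kb inside its start into the gene body (chr1:39198500-39199932 to chr1:39211689-39213070). Its first anchor was used at ZT10 by 1 loop of 3 PETs and its second by none, while the ends of the gene held 512 PETs at ZT10 and 10 at ZT22. Hlf, a PAR bZIP factor under clock control, had a loop of 3 PETs and 10.6 kb from its 3′ end into the gene body (chr11:90335715-90336606 to chr11:90346142-90347402), with no anchor used at ZT10. The ends of Hlf held 174 PETs at ZT10 and 9 at ZT22. Of the other 18 clock genes, 12 listed a ZT10 loop at an end, beside 43.0% of all genes. Among all 20 clock genes, 14 listed a ZT10 loop and 14 any ZT22 loop at an end.

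In each REV-ERB corepressor or metabolic list, 1 to 3 genes had a ZT22-only wide loop at an end, and those loops held 3 or 4 PETs each. The share of all genes, 6.64%, lies within the 95% interval of each of these lists and of the liver transcription factors. These counts therefore do not set the lists apart from other genes. Tbl1xr1, an NCoR complex subunit and 1 of 8 corepressor genes with such a loop, had 4 PETs over 11.1 kb from an anchor 0.445 kb from its start. That anchor carried 14 ZT10 loops with 291 PETs and the other 1 with 3. Insig2, a brake on SREBP processing and 1 of 25 lipogenesis genes, had 4 PETs over 68.2 kb, with 156 ZT10 PETs at the anchor near its start. Nr1h4, the bile acid receptor FXR and 1 of 20 genes of cholesterol and bile acids, was joined to its neighbour Slc17a8 by 3 PETs over 90.4 kb. The Nr1h4 anchor held 108 ZT10 PETs. Of 16 xenobiotic genes, only Ugt1a1, the bilirubin glucuronosyltransferase, had such loops, 2 with 7 PETs in all at its 3′ end, beside 755 ZT10 PETs at its ends. The Ugt1a genes share that 3′ end, so the loops count for each of them.

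In glucose metabolism 2 of 17 genes were touched. The anchor at Ppp1r3b, a glycogen-targeting phosphatase subunit, held 22 ZT10 loops of 311 PETs and was joined by 3 PETs to a place 149.4 kb away. Both anchors at Insr, the insulin receptor gene, lay in the gene (44.2 kb, 3 PETs) and held 23 and 9 ZT10 PETs. Of 17 genes of fatty acid oxidation, Ppara, Pdk4 and Slc25a20 had 1 loop of 3 PETs each. Pdk4, which restrains pyruvate use, had 97 ZT10 PETs at the anchor 2.442 kb from its start, Ppara, the fatty acid-sensing receptor, 6 PETs at the anchor in its body, and Slc25a20, the carnitine carrier, none at either anchor. A ZT10 loop lay 0.396 kb short of a match to the Pdk4 loop. Among 20 liver transcription factors, Cebpa and Gata4 had 1 loop of 3 PETs each. The anchors at Cebpa held 6 and 43 ZT10 PETs with a ZT10 loop 0.193 kb short of a match, and those at Gata4, which ran from Neil2 to the end of Gata4, held none.

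None of 23 genes of secreted hepatocyte proteins (an upper bound of 14.8%) and none of 18 acute-phase genes (18.5%) had a ZT22-only wide loop at an end. The share of all genes, 6.64%, lies within both bounds, so these counts of 0 do not set the lists apart. A ZT10 loop at an end was listed for 21 and 16 of them, against 43.0% of all genes. Any ZT22 loop at an end was listed for 14 and 13 of them. Marker genes were checked as the label of the tissue is liver. Of 8 hepatocyte markers 7 listed a ZT10 loop at an end and 7 a ZT22 loop, against 1 and 3 of 7 Kupffer, 6 and 3 of 8 endothelial, 5 and 5 of 7 stellate, 1 and 3 of 6 cholangiocyte and 2 and 2 of 7 lymphoid markers. Over all 21887 genes, 9413 listed a ZT10 loop and 9837 a ZT22 loop at an end, and several of the small marker counts are near those shares. ZT22-only wide loops were at 1 hepatocyte marker, Tat (tyrosine aminotransferase, 3 PETs), at Lyve1 among endothelial, Rgs5 among stellate and Krt7 among cholangiocyte markers, and at no Kupffer or lymphoid marker. Loop lists do not measure expression, and the part of other liver cells in these loops was not tested.

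**Figure D5:**
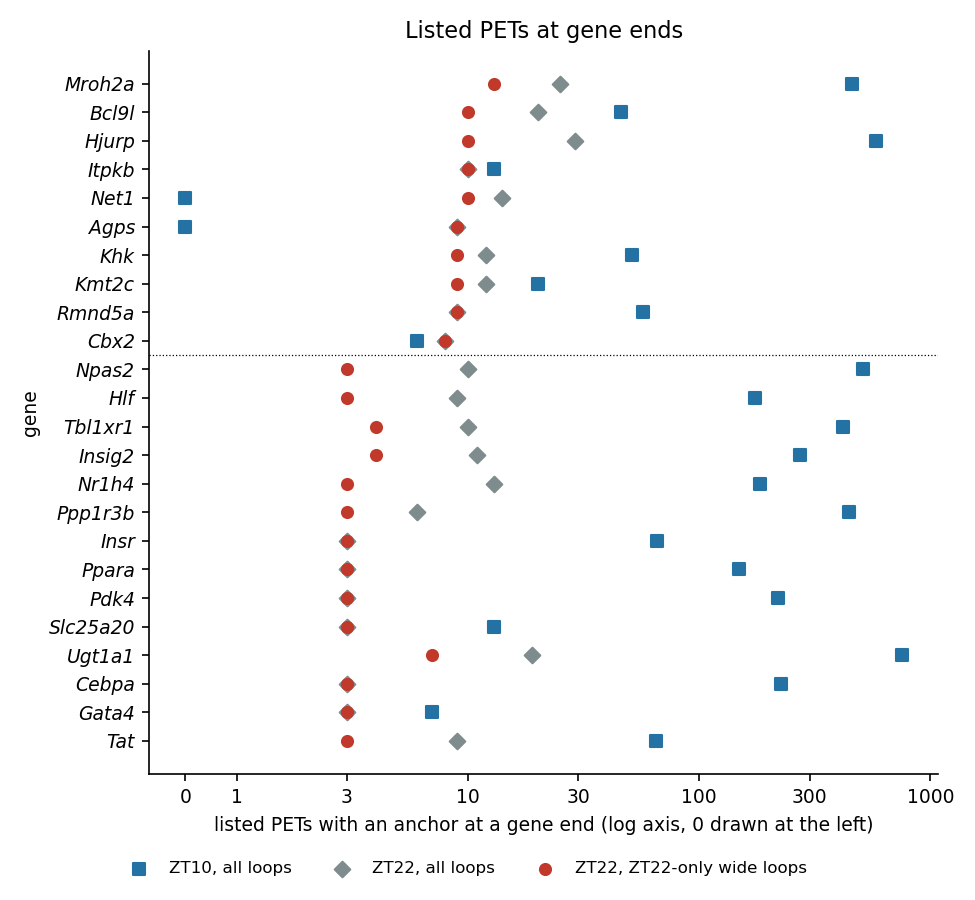
Listed PETs with an anchor within 5 kb of a gene end (x axis, log scale, 0 drawn at the left) for the 10 genes with most PETs of ZT22-only wide loops (above the dotted line) and for genes of the clock, corepressor, metabolic, transcription factor and hepatocyte lists with such a loop (below). Circles are PETs of ZT22-only wide loops, diamonds all ZT22 PETs and squares all ZT10 PETs; the list genes have 3 to 7 PETs of such loops and 7 to 755 at ZT10.

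Loops that joined ends of different genes numbered 145 (3.33%), of which 80 had no anchor used at ZT10. Those of 5 PETs joined Nrarp, a Notch pathway inhibitor, to a group of genes with Anapc2 and Grin1 (chr2, 108.1 kb), Prr36 to Lrrc8e (chr8, 9.832 kb), Gtf2e2, a subunit of the general factor TFIIE, to Smim18 (chr8, 12.3 kb), and Cox17, a copper chaperone of cytochrome oxidase, to Cd80 and Timmdc1 (chr16, 138.2 kb). None of these 4 had a ZT10 PET at either anchor. Of the 6 named loops of 4 PETs, that of Ugt1a1 and Mroh2a (11.2 kb) had 171 and 3 ZT10 PETs at its anchors. Those of B2m, the light chain of MHC class I, with Trim69 (8.464 kb), of Kiz with Xrn2 (40.7 kb) and of Tom1 with Mcm5, a replicative helicase subunit (36.6 kb), had 24, 3 and 15 at 1 anchor and 0 at the other. The olfactory receptor genes Olfr527 and Olfr60 (10.5 kb) and the pair Vnn1 and Taar2 (28.2 kb) had none. A ZT10 loop lay 0.436 kb short of a match to the loop of Kiz with Xrn2 and 0.741 kb short for B2m with Trim69.

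Gene bodies with most of these loops were long. Macrod2 (1998 kb) held 9 within its body, Pde4d, Ptprd and Zbtb20 7 each, and Pld5 (319.2 kb) 6. Zbtb20, a zinc finger repressor active in liver, also held 24 wide ZT10 loops and Pde4d, a cyclic AMP phosphodiesterase gene, 38, whereas Macrod2 held 2 and Pld5 none. Narrower ZT22 loops numbered 21 in the body of Macrod2, 17 in Pde4d, 16 in Ptprd, 7 in Zbtb20 and 3 in Pld5. Per megabase, the ZT22-only wide loops were about equally frequent in genes of 50 to 200 kb (1.79), 200 to 500 kb (1.90) and 500 kb or more (1.77). They were rarer in shorter genes (0.759). A loop had to fit within the gene, and the shortest spanned 7.645 kb, so the value for genes under 50 kb is limited by their length. Narrower ZT22 loops had 1.12 per Mb there and 3.42 at 50 to 200 kb. Wide ZT10 loops were most frequent at 50 to 200 kb (20.4 per Mb) and less so at 500 kb or more (5.53). By chromosome, autosomes held 1.40 (chr7) to 2.17 (chr10) of the loops per Mb and the X chromosome 0.342. Wide ZT10 loops were likewise sparse on X (2.25 per Mb, against 14.2 or more on every autosome).

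The AAV libraries listed few of the loops. Both anchors were matched by a loop in 4 and 11 cases in WT replicates 1 and 2 and in 5 and 6 cases in delhIDR replicates 1 and 2. Together 26 of the 4355 were listed in any of them (0.597%, 0.390 to 0.874%) and 0 in 2 or more. The share was 4.19% (14 of 334) for the wide ZT22 loops that ZT10 also listed, and 0.120% for narrower ZT22 loops. These small shares hold for overlap of 1 bp, and widening the anchors by 1 kb or 5 kb on each side raised the share listed in any AAV library to 2.64% or 16.3%.

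Among the 26 loops, 21 spanned under 20 kb and 18 had no anchor used at ZT10. The 10 named by PETs include one over the start of Itpkb (14.9 kb, 4 PETs), one within Esrrg, an orphan nuclear receptor gene (9.018 kb, 4 PETs), one at the 3′ ends of Acvr2a and Orc4 (9.622 kb, 4 PETs), one 3.227 kb from the start of Mfn1, a mitochondrial fusion protein (10.6 kb, 4 PETs), and one within Ube2r2 (11.2 kb, 3 PETs). The other 5 lay between genes, on chr12 (8.082 and 9.780 kb), chr4 (11.6 kb), chr8 (11.01 kb) and chr10 (126.2 kb).

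Single anchors were used in each AAV library in a share at or below the 21.4% at ZT10, and fewer bases were covered there. At least 1 anchor was used for 12.6% and 20.6% of the ZT22-only wide loops in WT replicates 1 and 2 and for 18.2% and 15.9% in delhIDR replicates 1 and 2. Those libraries' anchors covered 38.4, 69.5, 57.4 and 49.9 Mb, against 72.0 Mb at ZT10, and the order of the shares followed that of the coverage. Replicates of 1 construct differed as much as the constructs did, and with 2 libraries each no test between them was made. An anchor used in all 4 AAV libraries occurred in 9 loops (0.207%).

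Use at ZT10 and use in the AAV libraries went together weakly. In delhIDR replicate 1, 16.5% of the loops with no anchor used at ZT10 had an anchor used (15.2 to 17.7%), 23.6% of those with 1 (20.6 to 26.9%) and 28.3% of those with both (22.4 to 34.6%). In WT replicate 2 the shares were 20.3%, 21.7% and 21.97%, with overlapping intervals. No anchor was used either at ZT10 or in any AAV library for 1761 of the 4355 loops (40.4%, 39.0 to 41.9%). This count was not made for narrower ZT22 loops, so it does not set the ZT22-only wide loops apart. At ZT10 alone, 83.8% of the narrower and 78.6% of the ZT22-only wide loops had no used anchor. In single AAV libraries, 11.4 to 19.3% of the narrower loops had a used anchor, against 12.6 to 20.6% of the ZT22-only wide loops.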

How the data were processed

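Loop lists of 6 anti-HA in-situ ChIA-PET libraries of mouse liver were used, 1 for each knock-in time and 2 for each AAV construct. The 2 libraries with an anti-CTCF antibody are not analysed here. Per the labels, each list belongs to 1 library. The deposited values are raw counts of PETs per pair of anchors on 1 chromosome, not normalized, and the lowest count in each file is 3. Coordinates are on mm10, as the submitters' processing notes name it, and are printed as the authors' files give them, since a start at 0 or 1 is not stated. Not given in the sources used here are the aligner, the filter on duplicates, the cluster caller and the number of animals per library.

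Nuclear loops were read with pandas 2.3.3 and matched by overlap of 1 bp at both anchors. As a check of the matching, 400 loops of the ZT10 list were matched back to it, some unchanged and others with anchors or chromosome changed. All 400 gave the planned outcome, a match or none. Small shifts near the 1 bp limit were not part of this check. Widths are end minus start. Gene ends, bodies and strands came from RefSeq GRCm38.p6, whose coordinates are those of mm10 (21887 protein-coding genes, 5 kb around either end), and exons and introns were not separated. Shares have exact Clopper-Pearson intervals, counts exact Poisson intervals and medians order-statistic intervals (scipy 1.17.1), at 95%. No tests were made. The loops, the 16 gene lists and the alternatives were chosen with earlier results of these data known. Named were the 10 loops with most PETs, all loops at core clock genes, the 2 leading genes of each other list, up to 10 loops each at ends of different genes, with both anchors used at ZT10 and in an AAV library, the 5 leading shared anchors, the loops nearest each limit and the 10 genes with most PETs. Other genes and body counts were chosen after values were seen. Of the loops that the rule names, 1 is not reported here.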

Additional observations from a re-analysis of the deposited data

How the results depend on the processing

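Of 75 values recomputed under alternatives of the rule, 46 stayed within the interval of the reported value (for the number of loops, within 1.5 times) and 29 moved. A minimum anchor width of 600 bp gave 8594 loops with a median span of 19.8 kb, 19.1% with a used anchor and 3.75% with both used. The width of 800 bp gave a median of 12.3 kb, and 1000 bp gave 1549 loops and 11.7 kb. Requiring 4 PETs left 700 loops, a median of 11.6 kb, 23.7% with a used anchor, 6.43% with both and 29.0% at a gene end. Widening anchors by 1 kb gave 29.3% used, 7.10% with both and 2.64% listed in an AAV library. Widening by 5 kb gave 42.4%, 17.6% and 16.3%, a median of 12.3 kb and 22.4% at a gene end. Overlap of at least 50% of the shorter anchor gave 19.2% used and 0.294% in an AAV library. Matching only to wide ZT10 loops gave 17.4% used. Matching only to ZT10 loops of 4 or more PETs gave 14.1% used and 2.87% with both. A gene-end distance of 2, 10 or 25 kb gave 14.7%, 34.4% or 48.4%. Keeping chr11 3.1 to 3.3 Mb gave 1.05% listed in an AAV library. The median span stayed under 20 kb in all 12 alternatives. No paired analysis was possible because each knock-in time has 1 library and no result comes from a test. Loops of 3 PETs, the lowest count listed, make up 83.9% of the set, so a loop absent from a list may have up to 2 PETs there.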

Other observations

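ZT22 loops with 1 wide and 1 narrower anchor, which the rule leaves out, numbered 2922 under 2 Mb. A single miRNA hairpin of the 1005 listed by RefSeq lay in an anchor of a ZT22-only wide loop, that of Mir511 on chr2, in a loop of 3 PETs. The promoter window with the full ROR response element was that of Gm15713 on chr16.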
